A study of Gossypium hirsutum with 42 samples.

Results

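Genes of sucrose and trehalose metabolism and transport were followed in root and leaf of upland cotton (*Gossypium hirsutum*) seedlings from 4 inbred lines and 3 F1 hybrids. A gene was taken as a member when its deposited description named sucrose synthase, an enzyme of sucrose phosphate, a sucrose transporter or symporter, trehalose, a hydrolase of family 32, cell wall invertase or Nodulin MtN3, and when its level reached 1 FPKM in 3 or more libraries. FPKM is the number of sequenced fragments scaled to transcript length and library size, so levels of different genes are compared per length. Of the 100881 genes in the table, 145 had such a description and 102 of these passed the FPKM limit. The other 43 stayed below it. Judged by the lowest of their 3 highest libraries, the members nearest to the limit were Gh_Sca118534G01 at 1.01 FPKM, Gh_A06G2024 at 1.11 FPKM and Gh_D11G2760 at 1.16 FPKM, and the nearest genes left out were Gh_A01G1751 at 0.977 FPKM, Gh_D03G0812 at 0.965 FPKM and Gh_A02G0950 at 0.820 FPKM.

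The inbred lines were SJ48, Z98-15, 851-2 and DT-8. SJ48 was the mother of all hybrids, crossed to Z98-15 for the high hybrid (H), to 851-2 for the medium hybrid (M) and to DT-8 for the low hybrid (L), names that rank the hybrids by their yield heterosis. All seedlings grew untreated in a hydroponic solution until the first true leaves were fully expanded, and root and leaf came from the same plant. Each of the 7 genotypes had 3 replicates in each tissue, which gives 42 libraries, 12 of inbreds and 9 of hybrids per tissue. In whole roots and leaves, fewer cells of a type and less RNA per cell cannot be told apart.

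Plants move most of their fixed carbon as sucrose. Sucrose phosphate synthase makes it in photosynthetic and other cells, proton symporters load it into the phloem, and SWEET proteins, listed here as Nodulin MtN3, let sugars pass membranes down their gradient. In sink organs such as roots, sucrose is cut by sucrose synthase into UDP-glucose and fructose, or by invertases into glucose and fructose. The acid invertases of cell wall and vacuole belong to glycosyl hydrolase family 32, a family that in other plants also holds enzymes of fructan metabolism. Trehalose-6-phosphate synthase makes trehalose 6-phosphate, a sugar phosphate known as a signal of sucrose status, and trehalose-phosphatases remove it.

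The 102 members fell into 6 families. They were 14 sucrose synthases, 12 sucrose phosphate synthases, 14 invertases of family 32 or the cell wall, 13 sucrose transporters, 28 SWEET genes and 21 trehalose genes. In the gene identifiers the letter after Gh_ gives the A or D subgenome and the next digits the chromosome, and by these names 45 members lay in the A subgenome, 49 in the D subgenome and 8 on unplaced scaffolds. The files carried no coordinates. In the tests within a tissue 84 members passed the FPKM limit in root and 79 in leaf. 2 members joined 2 gene names at one locus, and near-identical copies of the 2 subgenomes can share reads, so the split between such copies is uncertain.

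The tissues matched their labels. The summed level of 69 leaf genes (light-harvesting, photosystem and Rubisco small-chain genes) ranged from 188 to 455 FPKM in root libraries and from 18899 to 25634 FPKM in leaf libraries. The summed level of 73 root genes (root hair, Casparian strip, phosphate and nitrate uptake genes) ranged from 157 to 315 FPKM in root and from 45.6 to 62.2 FPKM in leaf. Of these genes 58 and 30 reached the FPKM limit. Of the 58 leaf genes 54 were called higher in leaf and 2 higher in root, and of the 30 root genes 12 were called higher in root and none higher in leaf. Read counts were not used here, since the deposited table gives FPKM only. By the study's sequencing summary, each hybrid had fewer valid reads on average than each inbred line in root, but not in leaf. The part of depth in the member values was not tested. The 10 highest genes of a library took 1.39% to 2.23% of its FPKM in root and 5.16% to 15.6% in leaf. The members together took a larger share in root, at 0.300% to 0.532% of all FPKM, than in leaf, at 0.146% to 0.206%.

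Root and leaf differed in which step of sucrose use was most abundant. Sucrose synthase dominated in root, where its summed level ran from 638 to 1520 FPKM with a median of 1165, against 65.9 to 116 FPKM with a median of 89.4 in leaf. Invertases were also higher in root, at 109 to 253 FPKM against 33.2 to 78.1 FPKM. Sucrose phosphate synthase showed the opposite order, with 13.1 to 23.1 FPKM in root and 43.6 to 116 FPKM in leaf. SWEET genes summed to 86 to 108 FPKM in root and 131 to 213 FPKM in leaf. The ranges of these 4 families did not overlap between tissues, whereas those of the sucrose transporters and of the trehalose genes did. In leaf no family dominated, as sucrose transporters, trehalose genes and SWEET genes each held a median of 22.1% to 23.8% of the members' sum.

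**Figure D1:**
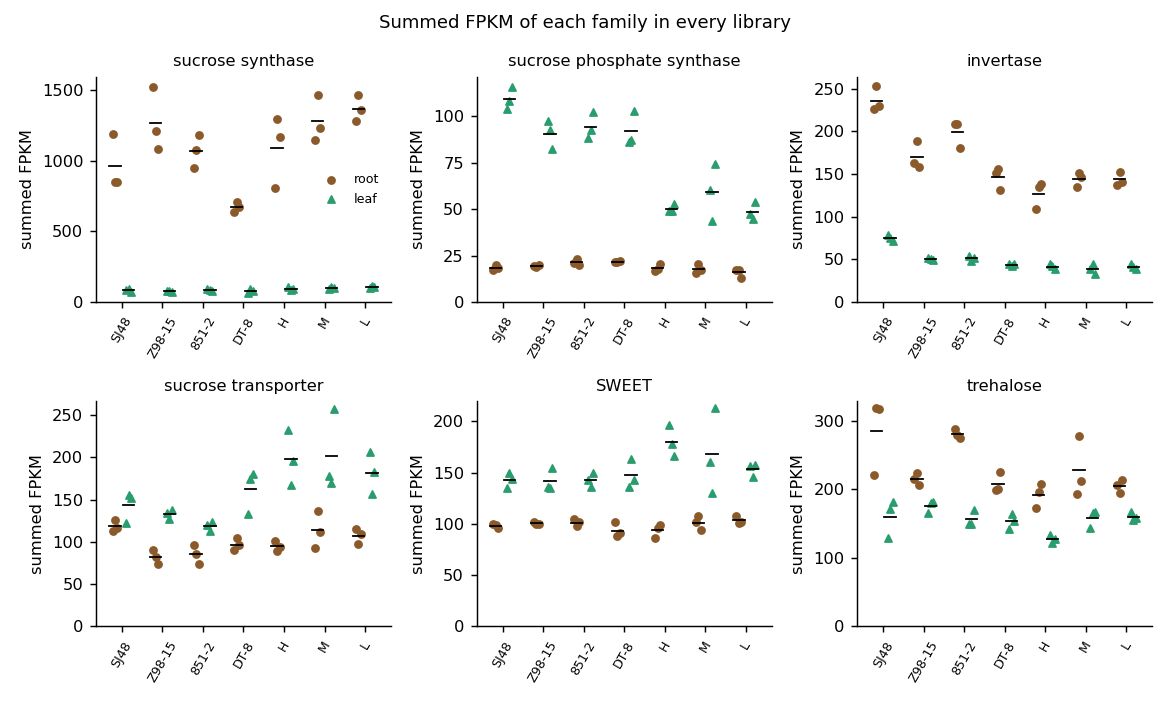
Summed FPKM of each of the 6 families in every library, by genotype (SJ48, Z98-15, 851-2 and DT-8 inbreds, then the H, M and L hybrids). Circles are root libraries, triangles are leaf libraries and black lines are means of 3 replicates. Sucrose synthase in root ran from 638 to 1520 FPKM, and in leaf the sums of sucrose phosphate synthase in hybrids (43.6 to 74.1 FPKM) lay below those of all inbreds (82.1 to 116 FPKM).

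A gene was called different when limma on log2(FPKM + 1) gave a Benjamini-Hochberg adjusted p below 0.05 and a difference beyond 1 on the log2 scale. The scale understates the change of genes with low FPKM. Between leaf and root 52 of 102 members were called, 20 higher in leaf and 32 higher in root, against 23.9% of all 69603 genes tested, 10% of genes being higher and 13.9% lower in leaf. The median leaf minus root difference was -0.47 on the log2 scale over the members and -0.24 over all genes. The same number of members, 52, had no overlap between the 21 leaf and the 21 root libraries, against 25.1% of all genes. Quantile normalization gave 54 members, 24 higher in leaf and 30 higher in root. For this test the FPKM limit was applied over both tissues together, and 61 members passed it in root and in leaf. The others passed it in a single tissue, so the limit favoured a difference between tissues for them. Among these were Gh_D05G2362, Gh_D07G0487, Gh_D02G0740 and Gh_D10G0560;Gh_D10G0559. The share over all genes was taken with the same limit.

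**Figure D2:**
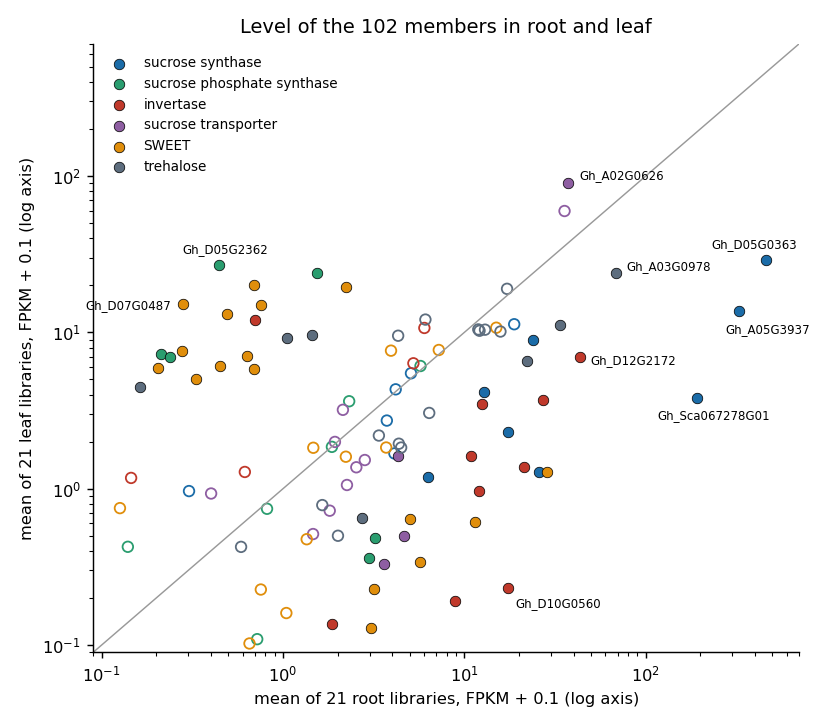
Mean FPKM + 0.1 of the 21 root libraries (horizontal, log axis) against that of the 21 leaf libraries (vertical, log axis) for the 102 members, coloured by family. Filled circles mark the 52 members called between tissues and the line marks equal levels. Sucrose synthases and invertases lie mostly to the right of the line, and sucrose phosphate synthases and SWEET genes with low root levels lie above it.

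Of the 14 sucrose synthases 8 were higher in root and none was called higher in leaf. The strongest member of the module was Gh_D05G0363, annotated as sucrose synthase 4, at 256, 488 and 669 FPKM (lowest, median and highest library) in root and 22.9, 29.3 and 34 FPKM in leaf. Its A-subgenome partner Gh_A05G3937 ran at 170, 344 and 453 FPKM in root and 9.69, 13.5 and 18.5 FPKM in leaf. All root libraries of this pair were above all leaf libraries. The leaf minus root difference on the log2 scale was -3.91 (SE 0.05, adjusted p = 2.7e-34, limma) for Gh_D05G0363 and -4.46 (SE 0.06, adjusted p = 9.9e-35) for Gh_A05G3937. Another sucrose synthase 4, Gh_Sca067278G01 on a scaffold, was at 1.47 to 313 FPKM in root with a median of 204 and at 0 to 13.9 FPKM in leaf, a difference of -5.97 (SE 0.40, adjusted p = 5.3e-15). Its lowest root library was H replicate 1 at 1.47 FPKM, beside 252 and 232 FPKM in H replicates 2 and 3, and without that library the difference was -6.28. Reads of this scaffold gene and its homologs can be split between copies, so its level is uncertain. Together these 3 genes held 41.8% to 66.3% of the members' summed FPKM in root and 4.86% to 10.1% in leaf.

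Of the 14 invertases 9 were higher in root and 1 was higher in leaf. Gh_D12G2172 had the highest mean over all root libraries, at 7.69, 45.2 and 96.9 FPKM (lowest, median, highest) against 0.882, 7.46 and 20.8 FPKM in leaf. That rank came from the inbreds, since in hybrid roots it averaged 18.8 FPKM, below Gh_D03G0541 at 24.9 FPKM and Gh_A13G1652 at 20.9 FPKM. Gh_D10G0560;Gh_D10G0559, a locus with 2 gene names, ran at 9.10, 16.4 and 30.4 FPKM in root and 0.0396, 0.117 and 0.561 FPKM in leaf. Every root library of this locus was above every leaf library, and the difference was -3.98 (SE 0.08, adjusted p = 4.7e-30). The invertase called higher in leaf was Gh_D03G1020, at 0.131, 0.452 and 1.27 FPKM in root and 5.76, 11.9 and 22.9 FPKM in leaf, a difference of 2.96 (SE 0.05, adjusted p = 1.3e-31). It had the highest invertase mean in inbred leaves, at 15.3 FPKM, whereas in hybrid leaves it averaged 7.47 FPKM and Gh_A12G1808 10.5 FPKM.

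Of the 12 sucrose phosphate synthases 4 were higher in leaf and 2 were higher in root. The leaf genes formed homeologous pairs. Gh_D05G2362 was at 0.137, 0.364 and 0.555 FPKM in root and 13.6, 31.2 and 39.8 FPKM in leaf, the largest leaf excess of the module at 4.28 (SE 0.05, adjusted p = 1.0e-35). Its partner Gh_A05G2107;Gh_A05G2106, a locus that also carries a phosphodiesterase name, differed by 3.24. The pair annotated as sucrose phosphate synthase 3F, Gh_A10G1119 and Gh_D10G1386, differed by 2.79 and 2.68. In root the highest member was a different gene, Gh_D13G2477, with a median near that of leaf and a difference of 0.08 (SE 0.03, adjusted p = 0.013), far under the limit of 1.

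SWEET genes went both ways, 11 higher in leaf and 6 higher in root of 28. Gh_D07G0487 was at 0.0199, 0.169 and 0.400 FPKM in root and 10.4, 13.8 and 30.8 FPKM in leaf, a difference of 3.72 (SE 0.07, adjusted p = 6.0e-31). Gh_D02G0740, with the highest mean of the family over all leaf libraries, ran at 0.287, 0.592 and 0.97 FPKM in root and 7.90, 17.9 and 32.6 FPKM in leaf, a difference of 3.65. In hybrid leaves it averaged 13.9 FPKM and Gh_Sca013374G01 was the highest SWEET gene, at 23.5 FPKM. Gh_D12G1898, one of the 3 members whose gene name occurs at several loci, differed by 3.27. In none of Gh_D07G0487, Gh_D02G0740 and Gh_D12G1898 did a root library reach the leaf range. The main SWEET gene of root was Gh_D12G2692, at 14.9, 30.0 and 39.2 FPKM in root against 0.524, 1.16 and 2.37 FPKM in leaf, a difference of -3.75 (SE 0.05, adjusted p = 7.4e-34).

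Sucrose transporters were less divided. Of 13 members 1 was higher in leaf and 3, all annotated as sucrose transporter 4, were higher in root. The sucrose-proton symporter Gh_A02G0626, of the type that loads the phloem, was the highest transporter in both tissues, at 21.1, 36.3 and 63.1 FPKM in root and 61.8, 87.9 and 145 FPKM in leaf, a difference of 1.27 (SE 0.07, adjusted p = 2.6e-17). Its partner Gh_D02G2392 differed by 0.70 and stayed under the limit of 1. Of 21 trehalose genes 3 were higher in leaf and 4 higher in root. Gh_A03G0978, named as a UDP-glycosyltransferase and trehalose-phosphatase, had the highest mean of this family in both tissues, at 48.0, 62.0 and 99.6 FPKM in root and 15.6, 24.8 and 32 FPKM in leaf, a difference of -1.47. The trehalose-6-phosphate synthases Gh_A09G0760 and Gh_D09G0762 were higher in leaf by 2.41 and 2.20.

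Homeologous copies could be compared where 1 gene of each subgenome carried the same description and chromosome number, which gave 21 pairs. The leaf minus root difference had the same sign in all 21 pairs. Both copies were called in 8 pairs, always in the same direction, and 1 copy alone in 5. Pairs outside the module were not counted, so these numbers have no share over all genes beside them and do not mark out the module. Copies of a pair can share reads, so their values are not independent.

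The next comparison asked whether hybrids as a class differed from the inbreds. In root 2 of 84 members were called, both lower in hybrids, against 2.12% of all 59282 genes tested, 1.28% being higher and 0.847% lower. The median difference was -0.10 over the members and 0.05 over all genes. In leaf 8 of 79 members were called, 4 higher and 4 lower, against 2.56% of all 54835 genes, 1.63% being higher and 0.934% lower. The median was 0.07 over the members and 0.07 over all genes. The calls include Gh_D06G1057 in root and Gh_A13G1540 in leaf. Both passed the FPKM limit in that tissue only through the class where they were high, so their calls were favoured by it. The p-values of this contrast rest on the spread between replicates within genotypes. With the 7 genotype means as units the same members were called, with adjusted p between 0.0034 and 0.013.

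Base quality in the study's sequencing summary was lower in DT-8 and all hybrids in root, and in 851-2, DT-8 and all hybrids in leaf, so class and quality cannot be fully told apart. Among the genotypes of lower quality alone, 10 of 84 members were called in root, 7 higher and 3 lower in hybrids, with DT-8 as the only inbred, against 4.32% of all genes, 2.36% being higher and 1.96% lower. In leaf 7 of 79 were called there, 3 higher and 4 lower, against 2.5%, 1.54% being higher and 0.963% lower. The part of base quality in the other calls was not tested. In hybrid roots 5 of 26 root genes tested were higher and none lower, against 1.28% of all genes higher and 0.847% lower. The summed level of the 30 root genes was 154 to 196 FPKM in inbred and 153 to 308 FPKM in hybrid roots. In leaf 1 of 55 leaf genes was higher and 1 lower in hybrids, against 1.63% of all genes higher and 0.934% lower. The sum of the 58 leaf genes was 21298 to 25633 FPKM in inbreds and 18898 to 24479 FPKM in hybrids. The part of such cell types in the member values was not tested.

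The invertase Gh_D12G2172 was called lower in hybrids in both tissues. In root it was at 34.4, 63.3 and 96.9 FPKM (lowest, median and highest) in the 12 inbred libraries and at 7.69, 17.9 and 28.8 FPKM in the 9 hybrid libraries. In leaf it was at 7.08, 8.85 and 20.8 FPKM in inbreds and at 0.882, 1.49 and 1.83 FPKM in hybrids. No hybrid library reached an inbred one in either tissue. The difference was -1.70 (SE 0.16, adjusted p = 4.4e-07) in root and -2.27 (SE 0.06, adjusted p = 1.4e-14) in leaf, and among the genotypes of lower base quality it was -1.18 (adjusted p = 0.0094) and -2.05 (adjusted p = 2.2e-09). The leaf minus root value of this hybrid difference was -0.57 (SE 0.18, adjusted p = 0.014), under the limit of 1. Among inbreds SJ48 had the highest means, at 80.3 ± 15.3 FPKM in root and 19.3 ± 1.55 FPKM in leaf (SD, n = 3).

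**Figure D3:**
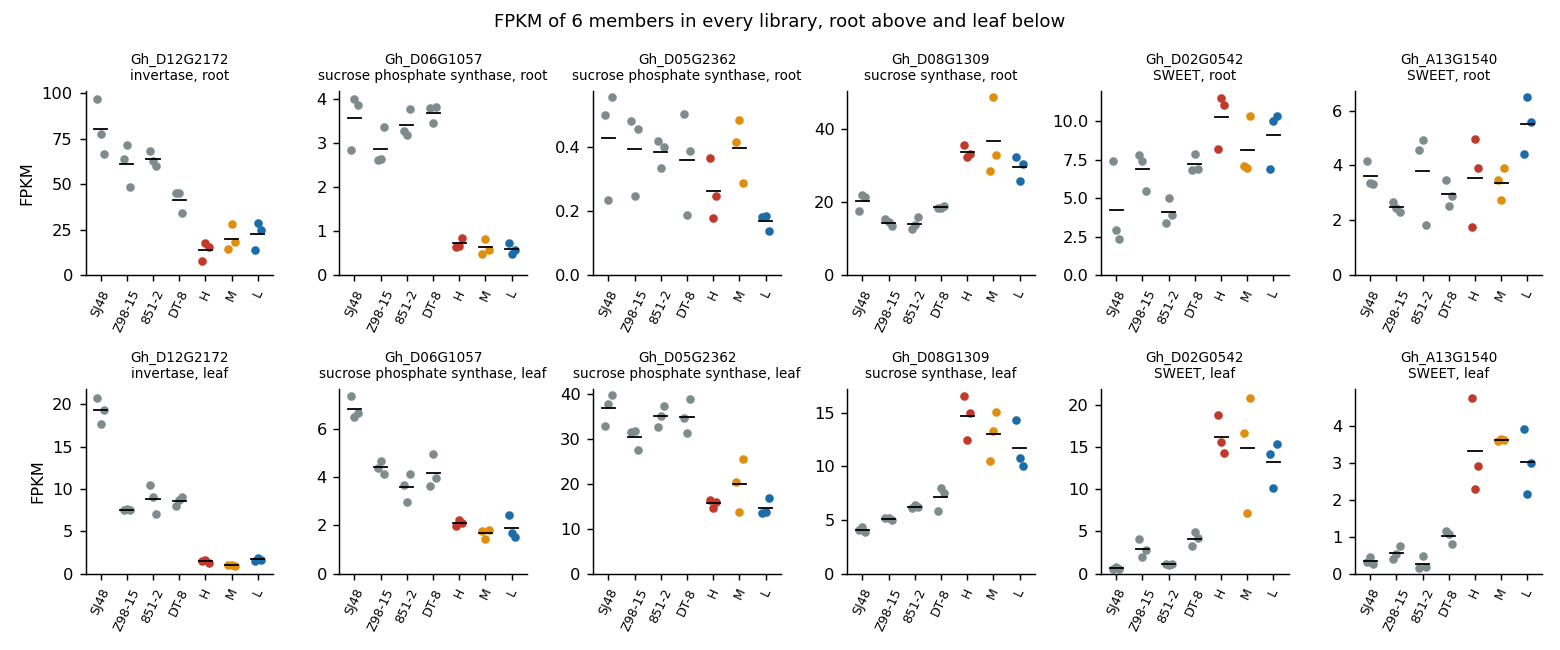
FPKM of 6 members in every library (points) with the mean of 3 replicates (lines), by genotype, in root (upper panels) and leaf (lower panels). Inbreds are grey and the H, M and L hybrids coloured, and each panel has its own axis from 0. Hybrids lie below all inbreds in both tissues for Gh_D12G2172 (7.69 to 28.8 against 34.4 to 96.9 FPKM in root) and Gh_D06G1057, and above all inbreds in both tissues for Gh_D08G1309.

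The sucrose phosphate synthases called in this contrast, 1 in root and 3 in leaf, were all lower in hybrids. In root Gh_D06G1057, annotated as form 1F, was at 2.62, 3.41 and 4.01 FPKM in inbreds and at 0.470, 0.647 and 0.855 FPKM in hybrids, a difference of -1.41 (SE 0.07, adjusted p = 1.6e-10), and -1.51 (adjusted p = 8.4e-06) among the genotypes of lower base quality. In root it reached 1 FPKM in all 12 inbred and in 0 hybrid libraries, so it entered the root test through the inbreds. In leaf it was at 2.96 to 7.37 FPKM in inbreds and 1.46 to 2.44 FPKM in hybrids, also without overlap, with a difference of -0.97 just under the limit. The 8 members of the family tested in leaf had a median difference of -0.95.

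The 3 called leaf genes were among the 4 members of the family called higher in leaf than in root. Gh_D05G2362 was at 27.5, 33.7 and 39.8 FPKM in inbred leaves and 13.6, 15.9 and 25.6 FPKM in hybrid leaves, a difference of -1.01 (SE 0.08, adjusted p = 5.0e-08). This value lies at the limit, and the call was lost (-0.998 to -0.935) without any of A leaf replicate 3, D leaf replicate 3, H leaf replicate 2, L leaf replicates 1 or 2, or M leaf replicate 2. Its partner Gh_A05G2107;Gh_A05G2106 was at 23.8 to 39.1 FPKM in inbreds and 11.4 to 23.3 FPKM in hybrids, a difference of -1.15 (adjusted p = 3.1e-08). Gh_D10G1386, of form 3F, was at 7.04, 8.58 and 12.4 FPKM against 2.74, 4.12 and 4.68 FPKM, a difference of -1.06 (SE 0.08, adjusted p = 1.5e-08). Among the genotypes of lower base quality it was -0.91 (adjusted p = 5.2e-05), under the limit, and Gh_D05G2362 and Gh_A05G2107;Gh_A05G2106 were at -1.04 and -1.09. Its partner Gh_A10G1119 differed by -0.94. All 4 genes, and the sum of the family, had every hybrid leaf library below every inbred one.

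The family went both ways, as 3 of the 8 members tested in leaf had a higher mean in hybrids. Gh_D13G2477, the highest sucrose phosphate synthase of root, was at 4.41 to 5.99 FPKM in inbred leaves and 6.2 to 7.72 FPKM in hybrid leaves, without overlap in the other direction, a difference of 0.43 (adjusted p = 4.3e-07). Gh_A13G1785 differed by 0.45 (adjusted p = 1.3e-04) and Gh_Sca084424G01, which reached 1 FPKM in 3 hybrid leaf libraries only, by 0.57 (adjusted p = 0.11).

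Gh_D08G1309, annotated as sucrose synthase 3, was called higher in hybrid leaves. It was at 12.6, 16.8 and 21.8 FPKM in inbred roots and 25.6, 32.4 and 48.6 FPKM in hybrid roots, and at 3.82, 5.51 and 7.97 FPKM in inbred leaves and 9.99, 13.3 and 16.5 FPKM in hybrid leaves. All hybrid libraries stood above all inbred ones in both tissues. The difference was 0.94 (SE 0.08, adjusted p = 1.2e-07) in root, under the limit, and 1.10 (SE 0.08, adjusted p = 4.4e-09) in leaf, where it was called. Among the genotypes of lower base quality the leaf value was 0.87 (adjusted p = 4.4e-05), under the limit. Its partner Gh_A08G1031 differed by 0.34 in root and 0.88 in leaf, in leaf without overlap. No other sucrose synthase was called in either tissue, and the 13 members tested in root had a median difference of -0.10.

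The largest rises in hybrid leaves were 3 SWEET genes. Gh_D02G0542 was at 0.550, 1.56 and 4.92 FPKM in inbred leaves and 7.23, 15.4 and 20.9 FPKM in hybrid leaves, a difference of 2.42 (SE 0.15, adjusted p = 9.5e-10). Gh_A13G1540 was at 0.144, 0.460 and 1.15 FPKM against 2.17, 3.60 and 4.76 FPKM, a difference of 1.49 (SE 0.10, adjusted p = 3.0e-09). Gh_D13G1875 was at 0.281, 0.425 and 1.29 FPKM against 2.17, 3.15 and 4.11 FPKM, a difference of 1.41 (SE 0.08, adjusted p = 2.8e-10). In none of the 3 genes did a hybrid leaf library fall into the inbred range. Gh_A13G1540 reached 1 FPKM in 2 inbred and 9 hybrid leaf libraries and so entered the leaf test through the hybrids. Among the genotypes of lower base quality the differences were 2.23 (adjusted p = 2.1e-06), 1.42 (adjusted p = 5.1e-06) and 1.28 (adjusted p = 1.4e-06). No SWEET gene was called in root, and no sucrose transporter or trehalose gene was called in either tissue.

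These SWEET genes differed between hybrids and inbreds more in leaf than in root. Over all 102 members, 4 passed the test of the leaf difference minus the root difference, against 2.52% of all 69603 genes. Gh_D02G0542 was at 2.34 to 7.85 FPKM in inbred roots and 6.90 to 11.5 FPKM in hybrid roots, a root difference of 0.67, and its leaf difference exceeded this by 1.75 (SE 0.21, adjusted p = 1.5e-07). In root the values overlapped for Gh_A13G1540 (1.84 to 4.93 and 1.75 to 6.48 FPKM) and for Gh_D13G1875 (0.716 to 1.90 and 0.895 to 2.21 FPKM), and the leaf difference exceeded the root one by 1.23 (SE 0.18, adjusted p = 2.9e-06) and 1.20 (SE 0.12, adjusted p = 3.7e-09). The fourth member was Gh_D10G1386 at -1.003 (SE 0.09, adjusted p = 3.3e-10), whose root level of 0.0313 to 0.231 FPKM left little room for a difference. Its value lies at the limit, and the call was lost in 13 of 42 removals of a single library, from A root replicate 3, B root replicate 2, B leaf replicate 1, C leaf replicate 3, D leaf replicate 3, H root replicates 1 and 3, H leaf replicate 1, M root replicate 2, M leaf replicate 2, L root replicate 1 and L leaf replicates 2 and 3. Without B leaf replicate 3 the number of members called was 7.

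**Figure D4:**
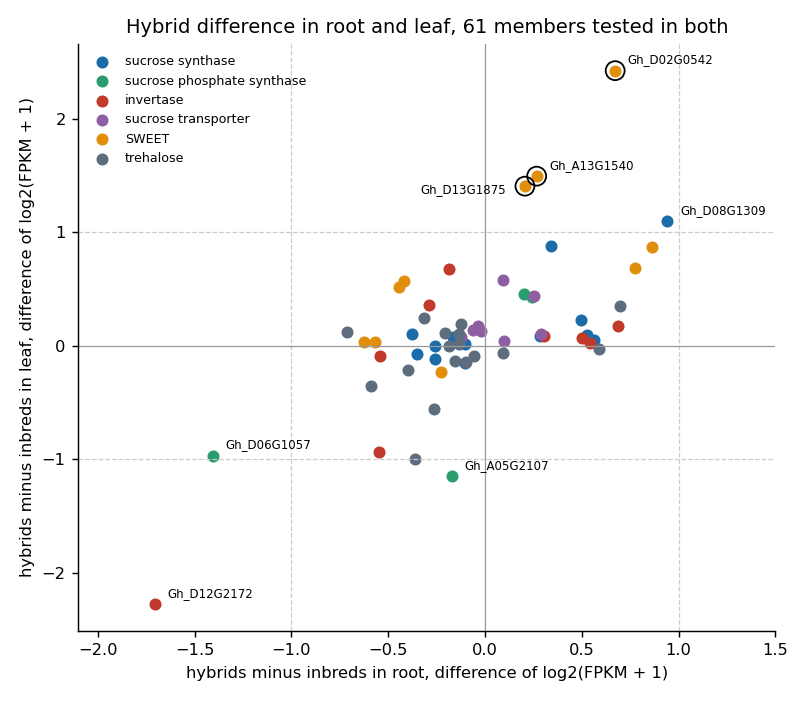
Hybrids minus inbreds on the log2(FPKM + 1) scale in root (horizontal) and leaf (vertical) for the 61 members tested in both tissues. Colours give the family, dashed lines mark differences of 1 and -1, and rings mark members called in the test of leaf against root (Gh_D10G1386 was not tested in root and is not drawn). Gh_D12G2172 lies low on both axes (-1.70 and -2.27), while the 3 ringed SWEET genes rise on the leaf axis (1.41 to 2.42).

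The classes were also compared without the limit on size, so these counts include the members called above. Every member called in the hybrid contrast was also without overlap in that tissue. In root 46 of 84 members had an adjusted p below 0.05 in the hybrid contrast at any size, 22 higher and 24 lower in hybrids, against 36.1% of all genes, 21.5% being higher and 14.6% lower. In leaf 36 of 79 did, 22 higher and 14 lower, against 37.7%, 24.3% being higher and 13.4% lower. All 9 hybrid libraries lay above or below all 12 inbred ones in 7 members in root, 5 above and 2 below, against 3.35% of all genes (1.85% above, 1.5% below), and in 16 members in leaf, 6 above and 10 below, against 5.87% (3.74% above, 2.13% below). Gh_D08G1309, Gh_D06G1057 and Gh_D12G2172 were in both of these sets. Among the root set, SWEET genes Gh_D10G1709 and Gh_A10G1468 and the trehalose-6-phosphate synthase Gh_D09G0762 were above. The counts include members that passed the FPKM limit in that tissue only through the class where they were high, namely Gh_D11G2760 (above) and Gh_D06G1057 (below) in root and Gh_A13G1540 (above) in leaf, so their place in these sets was favoured by the limit. Among the leaf set, the trehalose-6-phosphate synthase Gh_D01G0347 was below, at 12.3 to 17.6 FPKM in inbreds and 5.2 to 8.78 FPKM in hybrids, and its difference of -0.9992 was just short of the limit. Named here for their lack of overlap, these genes were chosen after their values were seen.

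Each hybrid was then set against both of its parents, and a member was called when it passed the test against SJ48 and against the father in the same direction. The smaller of both differences is given. The SJ48 libraries enter all 3 triads, so the counts of the hybrids are not independent. In root the high hybrid had 5 members beyond both parents, 1 above and 4 below, against 1.41% of all genes (0.972% above, 0.439% below). The medium hybrid had 3, all below, against 1.2% (0.803% above, 0.396% below), and the low hybrid 2, 1 above and 1 below, against 1.49% (0.837% above, 0.658% below). In leaf the high hybrid had 8, 5 above and 3 below, against 2.3% (1.5% above, 0.801% below). The medium hybrid had 7, 3 above and 4 below, against 2.82% (1.61% above, 1.21% below), and the low hybrid 6, 2 above and 4 below, against 1.62% (0.961% above, 0.657% below). These counts include members that passed the FPKM limit only through the class where they were high, so their calls were favoured by it. In root they were Gh_D06G1057 (H, M and L), Gh_A09G1747 (H and M) and Gh_D11G2760 (L), and in leaf Gh_A13G1540 (H and M). Both root calls of the low hybrid are of this kind.

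In root the invertase Gh_D12G2172 of the high hybrid was at 7.69, 17.9 and 15.7 FPKM, against 96.9, 77.4 and 66.8 FPKM in SJ48 and 63.9, 71.5 and 48.2 FPKM in Z98-15, a smaller difference of -2.13 (adjusted p = 1.5e-04). In the medium hybrid it was at 14.1, 27.9 and 18.3 FPKM, against 68.1, 62.7 and 60.1 FPKM in 851-2, a smaller difference of -1.67 (adjusted p = 0.0013). In the low hybrid it was at 13.9, 28.8 and 25 FPKM, against 45.2, 45.2 and 34.4 FPKM in DT-8, where the difference to DT-8 of -0.90 was under the limit. Gh_D06G1057 was below both parents in all 3 hybrids, by -1.16 (H), -1.44 (M) and -1.51 (L, adjusted p = 3.9e-07). In the low hybrid it was at 0.740, 0.470 and 0.581 FPKM against 2.84, 4.01 and 3.87 FPKM in SJ48 and 3.80, 3.45 and 3.82 FPKM in DT-8.

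Further members were called in root, of which Gh_A09G1524 is named here after its values were seen. Gh_D10G1709, the SWEET gene above both parents in the high hybrid, was at 19.0, 22.6 and 23.5 FPKM against 10.4, 8.31 and 8.21 FPKM in SJ48 and 10.8, 9.25 and 9.03 FPKM in Z98-15, a smaller difference of 1.08 (adjusted p = 8.6e-06). Gh_D11G2760, a low SWEET gene, was at 1.16, 1.56 and 1.10 FPKM in the low hybrid, against 0.0807, 0.101 and 0.0636 FPKM in SJ48 and 0, 0.0678 and 0.0562 FPKM in DT-8. Its smaller difference was 1.06 (adjusted p = 4.2e-05), and 0.98 without L root replicate 2. It reached 1 FPKM in 4 hybrid root libraries and in no other library, so the FPKM limit let it in only where it was high. The invertase Gh_A09G1747 was below both parents in the high hybrid (-1.08) and in the medium one (-1.63, a call that no removal of a library ended), and the SWEET gene Gh_A09G1524 in the high hybrid (-1.01). Gh_A09G1747 reached 1 FPKM in 9 inbred and 1 hybrid root libraries and in no leaf library, so it too passed the limit through the class where it was high. In the high hybrid its call was lost without B root replicate 1 or any H root replicate, and that of Gh_A09G1524 in 7 of 9 removals, without any SJ48 root replicate, B root replicates 1 or 3, or H root replicates 2 or 3, and the count for that hybrid was 3 without B root replicate 1, H root replicate 2 or H root replicate 3. For the low hybrid the count in root was 4 without L root replicate 3.

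In leaf Gh_D12G2172 was below both parents in all 3 hybrids. It was at 1.5, 1.65 and 1.20 FPKM in the high hybrid, 1.02, 0.966 and 0.882 FPKM in the medium one and 1.49, 1.83 and 1.65 FPKM in the low one, against 20.8, 17.7 and 19.3 FPKM in SJ48. The fathers had 7.52, 7.59 and 7.46 FPKM (Z98-15), 10.4, 9.04 and 7.08 FPKM (851-2) and 8, 8.65 and 9.09 FPKM (DT-8). The smaller differences were -1.80 (adjusted p = 5.3e-09), -2.32 (adjusted p = 1.3e-10) and -1.85 (adjusted p = 5.6e-09) for H, M and L.

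Gh_D02G0542 was above both parents in leaf of all 3 hybrids. It was at 18.9, 15.6 and 14.3 FPKM in the high hybrid, 16.8, 7.23 and 20.9 FPKM in the medium one and 14.2, 10.1 and 15.4 FPKM in the low one. SJ48 was lowest at 0.550, 0.745 and 0.591 FPKM, and the fathers had 4.09, 1.94 and 2.82 FPKM (Z98-15), 1.18, 0.974 and 1.08 FPKM (851-2) and 3.23, 4.92 and 4.21 FPKM (DT-8). The smaller differences were 2.16 (adjusted p = 3.1e-05), 2.83 (adjusted p = 1.1e-06) and 1.47 (adjusted p = 0.0013). The SWEET genes Gh_A13G1540 and Gh_D13G1875 were above both parents in the high and medium hybrids, by 1.44 to 1.79. In the low hybrid they stood 0.98 and 0.86 above DT-8, under the limit.

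Other leaf calls passed the limit in single hybrids or pairs of hybrids, and these members are named here after their values were seen. Apart from Gh_D02G1670 and Gh_D05G3263, they stood on the same side of both parents in every hybrid. Where these others were not called, their smaller difference was under the limit of 1. For Gh_D08G1309 it was 0.94 in M and 0.64 in L, and for Gh_D05G2362 -0.91 in H and -0.82 in M. Gh_D08G1309 (1.35) and the SWEET gene Gh_A10G1468 (1.12, lost without H leaf replicate 1) were above both parents in the high hybrid. The sucrose phosphate synthase Gh_A05G2107;Gh_A05G2106 was below them in the high (-1.29) and low (-1.13, lost without D leaf replicate 3) hybrids, and Gh_D05G2362 in the low one (-1.20). In the medium hybrid the leaf invertase Gh_D03G1020 (-1.10), the trehalose-6-phosphate synthase Gh_D01G0347 (-1.19) and the SWEET gene Gh_D02G0740 (-1.005, lost without A leaf replicate 3 or M leaf replicate 3) were below both parents, and in the low hybrid the SWEET gene Gh_A02G1806 (-1.17). Trehalose-phosphatase/synthase 9, Gh_D02G1670, was below both parents in the high hybrid (-1.34, adjusted p = 1.5e-04). The largest rise of the low hybrid, Gh_D05G3263, a trehalose-6-phosphate synthase, was uneven between replicates. It was at 4.83, 6.80 and 9.76 FPKM against 1.38, 2.36 and 0.880 FPKM in SJ48 and 0.778, 2.70 and 1.12 FPKM in DT-8, a smaller difference of 1.67 (adjusted p = 0.026), and the call was lost without A leaf replicate 1 or 3, D leaf replicate 1 or 3, or L leaf replicate 2 or 3 (adjusted p of 0.0567 to 0.0997).

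**Figure D5:**
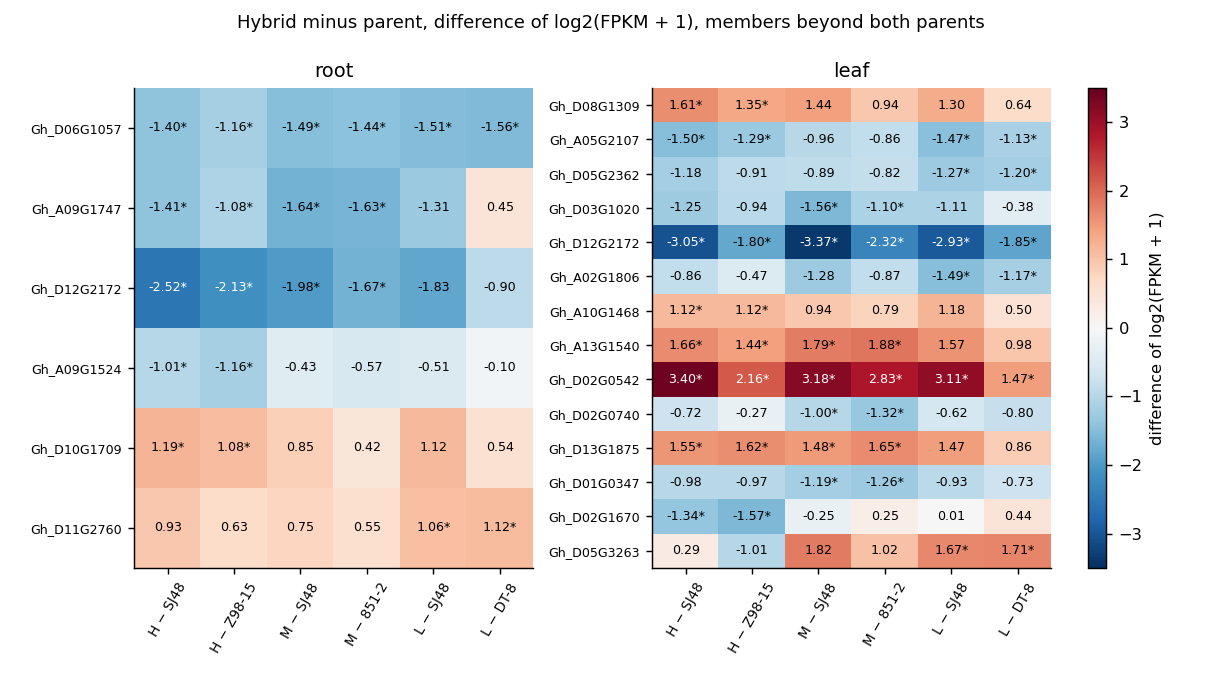
Differences of log2(FPKM + 1) between each hybrid (H, M, L) and SJ48 or its father, for the members beyond both parents in at least 1 hybrid, in root and leaf. Colour and printed value give the difference (scale from -3.5 to 3.5), and an asterisk marks hybrids called against both parents. Gh_D12G2172 and Gh_D02G0542 are called in all 3 hybrids in leaf, Gh_D06G1057 in all 3 in root.

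The 4 inbred lines also differed from each other. In root 11 of 84 members passed the F test with a largest difference above 1, against 6.17% of all genes, and in leaf 5 of 79, against 4.25%. Without A root replicate 1 the root count was 18. DT-8 was the line that stood lowest in most of these. The SWEET gene Gh_D03G1078 was at 0.147, 0.262 and 0.413 FPKM in DT-8 roots, against 1.97, 1.86 and 1.67 FPKM in SJ48, 4.70, 3.45 and 2.88 FPKM in Z98-15 and 2.62, 2.24 and 4.22 FPKM in 851-2, a largest difference of 1.86 (adjusted p = 4.6e-04). The invertase Gh_A09G1747 was at 0.348, 0.388 and 0.193 FPKM in DT-8 roots and between 1.59 and 7.60 FPKM in the other inbreds, a largest difference of 1.76 (adjusted p = 8.7e-04). No DT-8 library of these 2 genes reached another inbred line. Gh_A09G1747 reached 1 FPKM in 9 inbred root libraries, none of them of DT-8, and in 1 hybrid one. The FPKM limit thus let Gh_A09G1747 in mainly through the lines where it was high. In leaf both genes were near 0, at 0.0395 to 0.238 FPKM and 0 to 0.118 FPKM.

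Against SJ48, 5 members were called in DT-8 root and all 5 were lower, against 2.57% of all genes, 1.24% being lower. Between the low hybrid and DT-8, 11 members were called and 10 of them were higher in the hybrid, against 4.68% of all genes, 2.66% being higher. Both comparisons use the same DT-8 root libraries, so their counts are not independent. DT-8 was the only inbred of lower base quality in root, and the study reports the lowest mapped share of root reads for it. The part of either in these counts was not tested. The summed FPKM of all members was 1202 to 1275 in DT-8 roots and 1629 to 1867 in SJ48 roots. Sucrose synthase was at 672 ± 33.9 FPKM in DT-8 against 963 ± 196 FPKM in SJ48 and 1367 ± 91.9 FPKM in the low hybrid (SD, n = 3).

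In leaf the 5 members that differed among inbreds were Gh_A02G0694 and Gh_D02G0542 of the SWEET family and the invertases Gh_D12G2172, Gh_D12G1979 and Gh_A03G0507. Gh_A02G0694 was at 2.32, 3.12 and 2.99 FPKM in SJ48 and 9.03, 10.2 and 13.8 FPKM in Z98-15, the lowest and highest lines, a difference of 1.64 (adjusted p = 2.8e-05). Gh_D02G0542 was lowest in SJ48 and highest in DT-8, also by 1.64 (adjusted p = 0.0012).

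The hybrids were also compared with each other. In root no member was called among H, M and L, by the adjusted or the unadjusted p, against 0.574% of all genes. In leaf 2 of 79 were called, against 1.52%, and the number was 4 without M leaf replicate 2. Gh_A02G0694 was at 8.11, 5.79 and 5.71 FPKM in the high hybrid, 1.17, 1.86 and 1.25 FPKM in the medium one and 2.53, 1.96 and 3.49 FPKM in the low one, a largest difference of 1.63 (adjusted p = 6.8e-05). Its highest parent was the father of the high hybrid. Gh_D02G1670, the trehalose-phosphatase/synthase 9, ran the other way, at 11.7, 8.22 and 5.84 FPKM in the high hybrid against 19.8, 20.8 and 16.2 FPKM in the medium one and 21, 23.5 and 23.5 FPKM in the low one, a largest difference of 1.35 (adjusted p = 0.0018). In both genes the high hybrid did not overlap with the other hybrids.

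Genes of neighbouring steps of the pathway were tested in the same hybrid contrast, in which 2.12% of all genes were called in root and 2.56% in leaf. Of 17 neutral invertases tested in root and 16 in leaf none was called, and the same held for 12 and 11 genes of UDP-glucose pyrophosphorylase, which turns UDP-glucose to and from glucose 1-phosphate, and for 21 and 22 genes of the SnRK1 kinase complex, a sensor of energy status. Of the hexose kinases, which phosphorylate glucose and fructose, 2 of 62 were lower in hybrid roots, Gh_A07G2294 at -1.21 and Gh_D05G0274 at -1.18, and 1 of 59 was higher in hybrid leaves, Gh_D13G2090 at 1.12. Of the hexose transporters 1 of 95 was higher in root, Gh_A06G2058 at 1.10, and none of 87 in leaf. A single inhibitor of fructosidase, a protein that blocks acid invertases, passed the FPKM limit. This gene, Gh_A10G1552, was higher in hybrid roots by 1.94 (SE 0.17, adjusted p = 1.95e-07), and in leaf its difference of 0.89 stayed under the limit.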

How the data were processed

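The authors aligned paired-end Illumina reads of 42 libraries to the TM-1 cotton genome with HISAT (HISAT2 in the study's methods) and assembled and quantified genes with StringTie, per the labels and the study's methods, and versions were not given in the sources used here. They deposited a table of FPKM values for 100881 genes, with descriptions.

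FPKM was taken as log2(FPKM + 1) and fitted with limma 3.58.1 (R 4.3.3), with 1 mean per genotype, empirical Bayes with a mean-variance trend, 2-sided moderated tests and Benjamini-Hochberg adjustment over all genes of the fit (59282 in root, 54835 in leaf and 69603 in the fit of both tissues), each with FPKM of at least 1 in 3 libraries. Calls needed an adjusted p below 0.05 and a log2 difference beyond 1. Named by rule were the 2 marker genes Gh_D08G1309 and Gh_D12G2172, the highest member of each family per tissue, the 4 largest called differences in each direction between tissues and between hybrids and inbreds, the largest beyond both parents in each direction, the 2 largest among inbreds and among hybrids, the 3 largest between tissues in the hybrid contrast, and homeologous partners. Other genes are named after their values were seen. Members and lists were chosen with earlier results of these data known. The fits were tested on simulated data. The study calls its 3 replicates biological, and p-values measure the spread between them. Each result was also computed with 0.1 added in place of 1, without the filter, after quantile normalization, with blocks by replicate number or plant (root and leaf of equal number), and, where they apply, with genotypes of lower base quality, genotype means, triads alone, the unadjusted p and removal of each library. No sequences were used here.

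Same-numbered replicates did not deviate together. The correlation of their residuals had a median of 7.15e-05 over 63 pairs in root (-0.0675 to 0.119) and -0.00756 over 63 pairs in leaf (-0.056 to 0.097). Root and leaf of the same genotype and number, taken as the same plant, had a median of 0.0094 over 21 pairs (-0.0727 to 0.0674) and a consensus correlation of -0.00318. The study's methods state that both tissues came from the same plant, but not that equal numbers mark it. These values therefore cannot decide whether tissues of a plant deviate together.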

Additional observations from a re-analysis of the deposited data

Results flagged for a closer look

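Members whose hybrid minus inbred difference was unlike between leaf and root, by the interaction term of limma with Benjamini-Hochberg adjustment, were Gh_D02G0542 at 1.75, Gh_A13G1540 at 1.23, Gh_D13G1875 at 1.20 and Gh_D10G1386 at -1.003 on the log2 scale. The SWEET genes among them were higher in hybrid leaves and Gh_D10G1386, a sucrose phosphate synthase, was lower there. Gh_D10G1386 was at 0.0313 to 0.231 FPKM in root, so that a root difference could hardly be measured.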

How the results depend on the processing

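With a pseudocount of 0.1 more members were called: in the hybrid contrast 10 in root and 14 in leaf, beyond both parents 8 (H), 5 (M) and 7 (L) in root and 14 (H), 11 (M) and 12 (L) in leaf, 9 among inbreds in leaf, and 14 in the test of leaf against root. With the genotypes of lower base quality alone 10 were called between hybrids and inbreds in root, quantile normalization left 1 for the low hybrid in root, and the unadjusted p gave 4 among hybrids in leaf. Leaving out single libraries gave 52 to 54 members between tissues, 2 to 3 and 7 to 10 between hybrids and inbreds in root and leaf, 3 to 7 in the test of leaf against root, 9 to 18 and 5 to 6 among inbreds, 0 to 0 and 2 to 4 among hybrids, 3 to 5, 3 to 3 and 2 to 4 beyond both parents in root for H, M and L, and 7 to 12, 6 to 8 and 4 to 8 in leaf. No called difference of the genes named by rule reversed under any of these settings. Uncalled differences, homeologous partners and genes named after their values were seen were not part of this check. With the replicate block (the plant as a random block in the test of leaf against root, which again called 4), 3 members were called among hybrids in leaf in place of 2 and no other count changed. FPKM without counts leaves the number of reads behind a low level unknown, so fold changes of genes under 1 FPKM are not firm.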

Other observations

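Of the 43 genes with a matching description that stayed under the FPKM limit, 15 were SWEET genes, 9 trehalose genes, 7 invertases, 5 sucrose phosphate synthases, 5 sucrose transporters and 2 sucrose synthases. In leaf the summed sucrose transporters were at 113 to 180 FPKM in inbreds and 157 to 257 FPKM in hybrids, ranges that overlap.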
